A study of Mus musculus with 6 samples.

Results

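The contractile unit of the heart muscle cell is the sarcomere, in which myosin thick filaments slide along actin thin filaments. Titin spans from the Z-disc, where the thin filaments are anchored, to the M-band, where the thick filaments are cross-linked, and many smaller proteins hold these lattices together. Many of these proteins come as isoforms that change between the fetal, neonatal and adult heart, or differ between atrium and ventricle. The set described here was a fixed list of 37 protein-coding genes for thick filament, thin filament, titin, Z-disc, M-band, muscle ubiquitin ligases and myofibril maintenance, and no measured value enters its rule, although it was drawn up with earlier results of these data known. Of these 37 genes, 24 had a row among the 10065 gene rows analysed here and 13 had none.

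The libraries were of small RNA from the whole heart of SV129 mice at postnatal day 6, from 3 wild-type and 3 ADAR2-/- animals. ADAR2, encoded by Adarb1, is an enzyme that converts adenosine to inosine in double-stranded RNA. The knockout animals carried the genotype Adarb1-/-, Gria2R/R, in which a pre-edited Gria2 allele rescues the early lethality of the null. Per the study's methods all animals were female siblings, and the wild-type hearts carried the Gria2R/R allele too. The value used was the authors' mean normalised read count for each gene over all 6 hearts, called the mean below. It holds no value for a single heart, so it has no replicate spread, no interval and no test, the table does not give the sequencing depth behind it (the study's methods state only a minimum number of reads per sample), and no difference between the genotypes is given here. The value comes from small-RNA libraries, so for a messenger RNA it counts short fragments of the gene and is not a measure of protein or of intact transcript. In whole hearts, fewer muscle cells and less RNA per muscle cell cannot be told apart.

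The sarcomere and Z-disc genes, 24 of the 10065 rows, held a small share of the summed means. Over the 24 genes the means summed to 325.2, which was 0.152% of the sum of 214408 over all rows. Titin (Ttn), the giant spring of the sarcomere, had the highest mean at 82.9 and gave 25.5% of the members' sum, and without it the share was 0.113%. It was followed by Pdlim5, a PDZ and LIM adaptor of the Z-disc, at 54.8, by Fhl2, a LIM-only protein that binds titin, at 32.0, and by Nebl, the nebulin-like anchor of cardiac thin filaments, at 25.2. These 4 genes held 60.0% of the members' sum. Only 7 members had a mean of 10 or more, and the other 17 lay below 10, down to Trim63 at 2.02. The highest mean was 41.1 times the lowest.

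Among genes with a row, and before length was considered, the members' median mean was close to that of protein-coding genes. It was 6.95, against 6.78 over the 8409 protein-coding rows that matched the annotation, and 12 of the 24 members lay above that second value. Most of the protein-coding table was as low: 5334 rows (63.4%) had a mean under 10. Having a row at all was more frequent among the members, at 64.9% against 38.2% of the 21951 annotated protein-coding genes. Whether a gene had a row went with the length of its locus, so the members were also set against genes of like length, in 10 classes of equal size by genomic span. At the share of genes with a row in each class, 15.9 of the 37 would have had one, against the 24 that did.

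**Figure D1:**
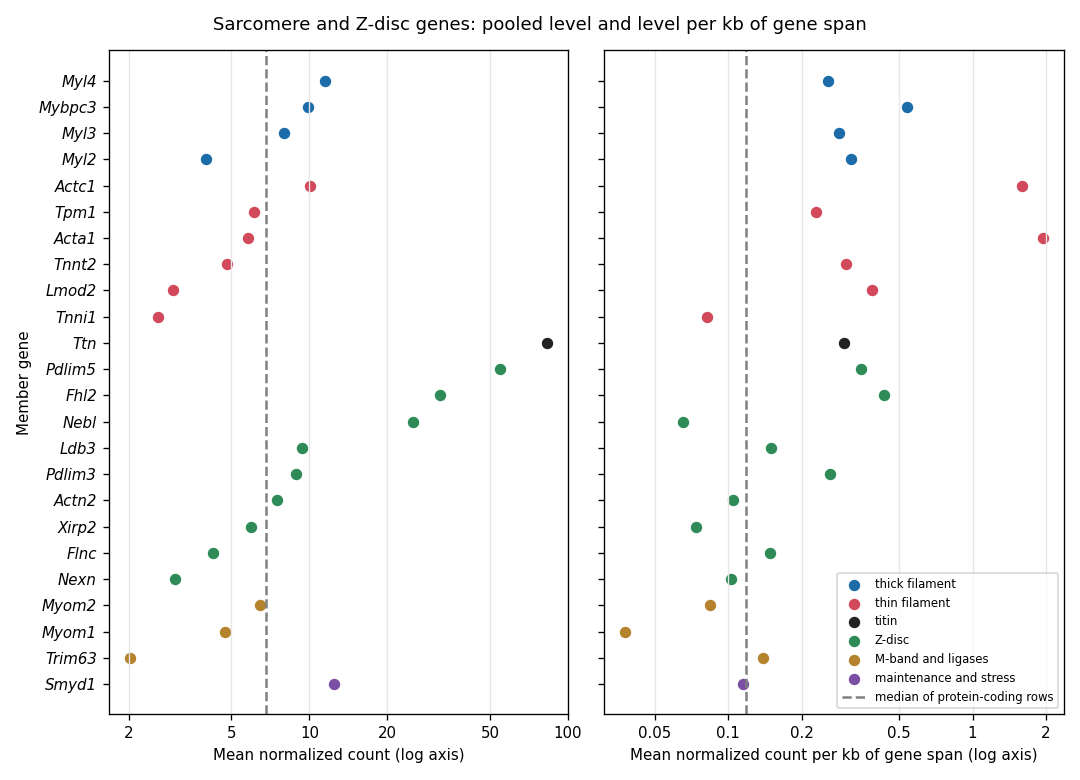
Mean normalised read count over all 6 hearts (left) and the same value per kb of gene span (right) for the 24 sarcomere and Z-disc genes, both on log axes, with 1 point per gene coloured by role and a dashed line at the median of the protein-coding rows. Ttn, Pdlim5, Fhl2 and Nebl have the highest means, whereas the short actin genes Acta1 and Actc1 stand at the top per kb of span.

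The thick filament genes were present for 4 of 5 members, with means between 3.99 and 11.5 and a sum of 33.3, 10.2% of the members' total. Myl4, the essential myosin light chain of the atrium and of the fetal and neonatal ventricle, was highest at 11.5. Cardiac myosin-binding protein C (Mybpc3), which tethers and regulates the myosin heads, followed at 9.87, Myl3, the ventricular essential light chain, stood at 7.95, and Myl2, the ventricular regulatory light chain, at 3.99. All 4 lay at or above the 50th percentile of their span class, Myl4 at percentile 85.3 and Myl2 at percentile 52.2. Myl7, the atrial regulatory light chain, had no row.

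Of the 8 thin filament genes 6 had a row, and they were low in absolute terms, from 2.59 to 10.03. Actc1, the cardiac alpha-actin, had a mean of 10.03, and Acta1, the skeletal alpha-actin that the neonatal mouse heart also makes, 5.79. Alpha-tropomyosin (Tpm1), which lies along the actin filament, had 6.11, and cardiac troponin T (Tnnt2), which fixes troponin to tropomyosin, 4.82. Lmod2, a leiomodin that lengthens thin filaments, had 2.97, and Tnni1, the slow skeletal troponin I of the fetal and neonatal heart, 2.59. Tnni1 and Tnnt2 are neighbours on chromosome 1, 25.4 kb apart, and per kb of span the mean of Tnnt2 was 3.70 times that of Tnni1. Per kb of merged exons, however, Tnnt2 had 0.622 and Tnni1 0.719, so the order changed with the scale. The cardiac troponins I (Tnni3) and C (Tnnc1) had no row.

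The Z-disc was the largest role, with 9 of 15 genes and 46.4% of the members' sum. After Pdlim5, Fhl2 and Nebl came Ldb3 (9.34), whose product cypher links alpha-actinin to signalling kinases, Pdlim3 (8.87), another adaptor of alpha-actinin, and Actn2 (7.47), the alpha-actinin that cross-links actin at the Z-disc. The actin-binding repeat protein Xirp2 (5.97), filamin C (Flnc, 4.25) and nexilin (Nexn, 3.03) were lowest. In their span classes 7 of the 9 lay at or above the 50th percentile, Fhl2 highest at 94.5, whereas Xirp2 (42.6) and Nexn (28.0) lay below it. The Z-disc genes without a row were Csrp3, Tcap, Myoz2, Xirp1, Myot and Synpo2l.

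None of the 3 M-band and ligase genes with a row reached the 50th percentile of its span class. Myomesin 2 (Myom2) had a mean of 6.42, myomesin 1 (Myom1), the main cross-linker of thick filaments at the M-band, 4.71, and Trim63, the ubiquitin ligase MuRF1, 2.02. Myom1 stood at percentile 2.27 among rows of its class, the lowest such percentile of any member. Its locus of 124.2 kb was close to the lower bound of that class, the longest of the 10, which began at 109912 bp. Per kb of span Myom1 was the lowest member too, at 0.0380. Trim54, the related ligase, had no row. Of the maintenance and stress genes Smyd1, a muscle methyltransferase needed to build myofibrils, had a mean of 12.5 and lay at percentile 77.7 of its class, whereas desmin (Des), alpha-B crystallin (Cryab) and Ankrd1 had no row.

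The 13 genes without a row had mostly short loci, which spanned 1.14 to 28.8 kb with a median of 8.25 kb, whereas those with a row spanned 2.98 to 388 kb with a median of 32.8 kb, and 14 of the 24 were longer than the longest locus without a row, that of the calcineurin-binding protein Myoz2. In the 4 shortest span classes, up to 11.9 kb, 3 of 12 members had a row, against 7.62% of all protein-coding genes there. The 3 were Acta1, Actc1 and Lmod2, and among the 9 without one were Tcap (1.14 kb), the titin cap, Myl7 (2.15 kb), Tnnc1 (3.42 kb), Cryab (5.31 kb) and Des (8.25 kb). In the 3 longest classes, from 36.4 kb upward, all 11 members had a row, against 86.2% of all genes there. Between these, 10 of 14 members had a row, against 31.0%. Several of the absent genes encode major proteins of the heart, such as Tnni3, Tnnc1 and Des. Absence from the table therefore does not show absence of the messenger: the lowest mean of any row was 1.09, and how rows were kept is not given in the sources used here.

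**Figure D2:**
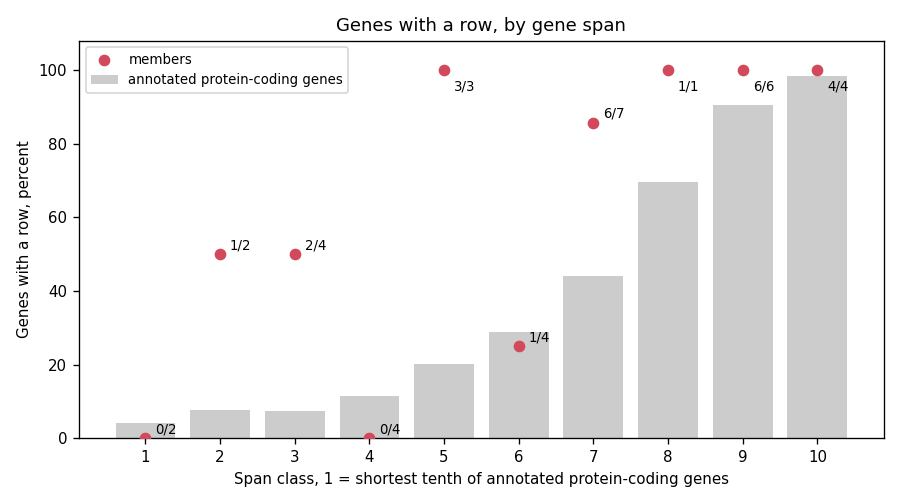
Percent of annotated protein-coding genes with a row in each of 10 classes of gene span, from the shortest to the longest (grey bars), and percent of the sarcomere and Z-disc genes with a row in the same class (red points, each beside its number with a row out of its number of genes). The percentage rises from 4.10 in the shortest class to 98.5 in the longest, and the members with a row are found mostly in the longer classes.

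The mean also went with locus length among the genes that had a row. Spearman's rho between mean and gene span was 0.55 over the 24 members and 0.56 over the 8409 protein-coding rows, whereas rho with the summed length of exons was 0.26 and 0.27. These are correlations across genes in the same pooled libraries and are given as a description. Exons made up a median of 13.9% of the members' spans. Length was therefore taken into account in more than one way. Per kb of merged exons the median member had 1.59, against 1.36 for protein-coding rows, and 14 of 24 lay above the latter. Per kb of gene span the median member had 0.242, against 0.118, and 16 of 24 lay above. Within their span classes the members' median percentile was 63.8, with 17 of the 24 at or above the 50th percentile.

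**Figure D3:**
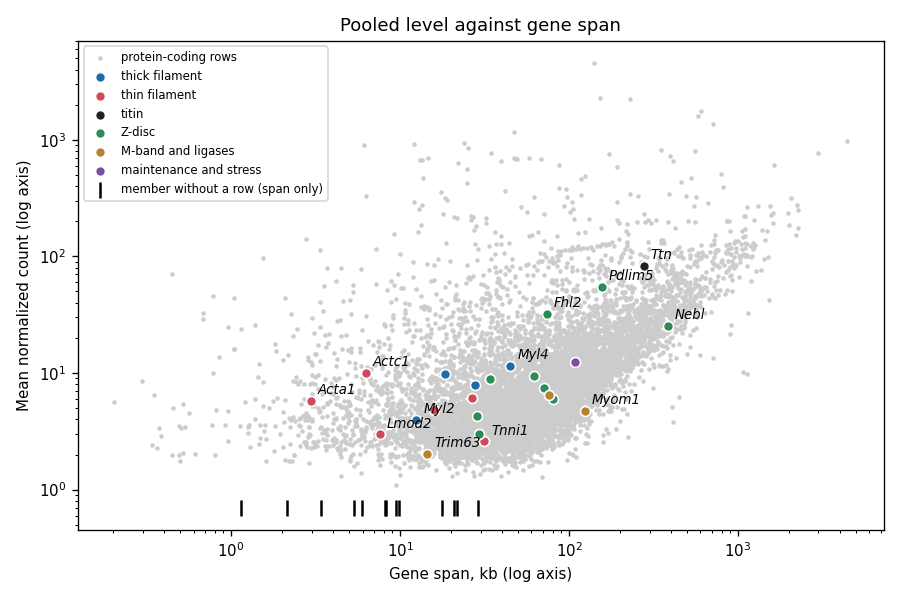
Mean normalised read count against gene span in kb, both on log axes, for all matched protein-coding rows (grey) and the 24 members (coloured by role), with black ticks at the spans of the 13 members without a row. Most members lie within the grey cloud, in which longer loci have higher means, Ttn lies at the upper right, and Myom1 lies at the lower edge for its length.

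Titin showed how much the scale matters. Its mean of 82.9 ranked it 331st among the protein-coding rows, and within the longest span class it stood at percentile 89.7. Per kb of merged exons, however, it had only 0.709, at percentile 24.2 of the protein-coding rows, because its 116.8 kb of exons are far longer than those of any other member. The reverse held for the actins. Per kb of span Acta1 had 1.94 and Actc1 1.60, which were 16.5 and 13.6 times the protein-coding median. Of all protein-coding rows 292 exceeded Acta1 and 348 exceeded Actc1 on that scale. Among rows of their own span classes, however, Acta1 stood only at percentile 64.4 and Actc1 at 80.6. A short locus needs a high value per kb to have a row at all, and with the table's lowest mean Acta1 would have had 0.365 and Actc1 0.174. Per kb of merged exons the members with the most reads were Fhl2 at 16.9, Actc1 at 6.20, Pdlim5 at 6.18, Myl3 at 3.89 and Acta1 at 3.77. The next were Smyd1 at 2.75, Myl4 at 2.48, Mybpc3 at 2.37, Myl2 at 2.05 and Actn2 at 1.97.

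A locus can take in reads of another gene that lies in or across it. Over the whole table, of 533 genes lying wholly inside a longer gene on the same strand the longer gene had the higher or an equal mean in 531, and on opposite strands it did so in 445 of 447. Longer genes had higher means in any case, and the counting rule is not given in the sources used here. The best known cases were the cardiac myosin heavy chain genes, which were not members and host heart microRNAs in their introns. Myh7 had a mean of 943 and Mir208b inside it 938 (99.4%), and Myh6 had 425 and Mir208a inside it 413 (97.3%). The sum of these 2 heavy chain genes was 4.21 times that of all 24 members together. Whether the host means hold the reads of these microRNAs was not tested. No member hosted a microRNA gene with a row.

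Of the 24 members 18 overlapped no other gene with a row and 6 did, in GRCm38 coordinates. Acta1 (ENSMUSG00000031972, chr8:123891769-123894751, minus strand) lay wholly inside Gm20388, a gene of 4435 kb on the other strand with a mean of 976, so that Acta1 held 0.593% of the larger gene's mean. Actc1 (ENSMUSG00000068614, chr2:114047282-114053548, minus strand) lay wholly inside A530058N18Rik, also on the other strand, whose mean was 13.4. Actc1 covered 11.4% of that locus and its mean equalled 75.1% of the mean there. Myom1 (ENSMUSG00000024049, chr17:71002633-71126856, plus strand) lay within Gm26561, a long noncoding RNA gene of 515.2 kb on the same strand with a mean of 160, yet itself had 4.71. Ttn (ENSMUSG00000051747, chr2:76703980-76982547, minus strand) held the antisense gene Gm13938, which covered 23.0% of its span and whose mean of 30.4 was 36.7% of that of Ttn. Xirp2 held the antisense gene Gm13601 over 31.6% of its span, with a mean of 4.01, 67.2% of its own. Myl3 shared 18.9% of its span with Pth1r, a parathyroid hormone receptor gene on the other strand, with a mean of 12.5. In all 5 nested pairs among these, the outer gene had the higher mean. Which of the overlapping genes a read came from was not tested. Without the 6 members the share of the total fell from 0.152% to 0.0970%.

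The cardiac and skeletal alpha-actins are closely related, and a short read that lies wholly in a stretch they share cannot separate them. Their coding sequences are 1134 bases each, of which 157 differ (86.2% identical). The longest stretch they share is 29 bases, at positions 964 to 992 counted from the first base of the start codon, and 5 shared runs of at least 22 bases cover 127 bases, or 11.2% of the coding sequence. The window around the longest one, positions 949 to 1007, is printed 5′ to 3′ on the coding strand from the GENCODE M21 transcripts (GRCm38). In it, a read of at least 22 bases fits both genes without a mismatch only within the 29 shared bases. The 6 bases that differ are in capitals.
Actc1: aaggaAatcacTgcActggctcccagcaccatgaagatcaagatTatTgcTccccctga
Acta1: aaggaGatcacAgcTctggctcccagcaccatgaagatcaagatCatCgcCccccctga

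Over their whole transcripts the pair shared few 22-base stretches, 22 of the 1534 of Acta1 (1.43%), which is 1.38% of the 1596 of Actc1. Acta1 was the only member with a row that shared more than 10% of its stretches with any other gene, at 195 stretches (12.7%). Most were shared with Actb, the cytoplasmic beta-actin, which took 110 of them and had a mean of 16.6. Actc1 shared 75 stretches (4.70%), 41 of them with the smooth muscle actin Actg2. Nexn shared 7.77%, largely with Gm43185, an unverified model on the same strand inside its own locus. Of the 24 members, 15 shared less than 1%. How the authors placed reads with several matches is not given in the sources used here.

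The isoform pairs were compared as ratios of their means in the same libraries, with no spread available. Of 4 pairs listed, 2 could be formed, since Tnni3 and Myl7 had no row. Per kb of merged exons the ratio of Myl4 to Myl2 was 1.21, from 2.48 and 2.05. The raw means stood at 2.89 to 1, but per kb of the longest transcript the ratio was 0.784 and per kb of span 0.802, so the data do not order these genes. Because Myl4 is an essential and Myl2 a regulatory light chain, Myl4 was also set beside Myl3, its ventricular counterpart. That ratio was 0.638 per kb of merged exons, 0.897 per kb of span and 1.45 in raw means, and its order changed with the scale too. The ratio of Acta1 to Actc1 was 0.608 per kb of merged exons, 0.588 per kb of the longest transcript and 0.577 in raw means, with the cardiac gene higher each time, but per kb of span it was 1.21.

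**Figure D4:**
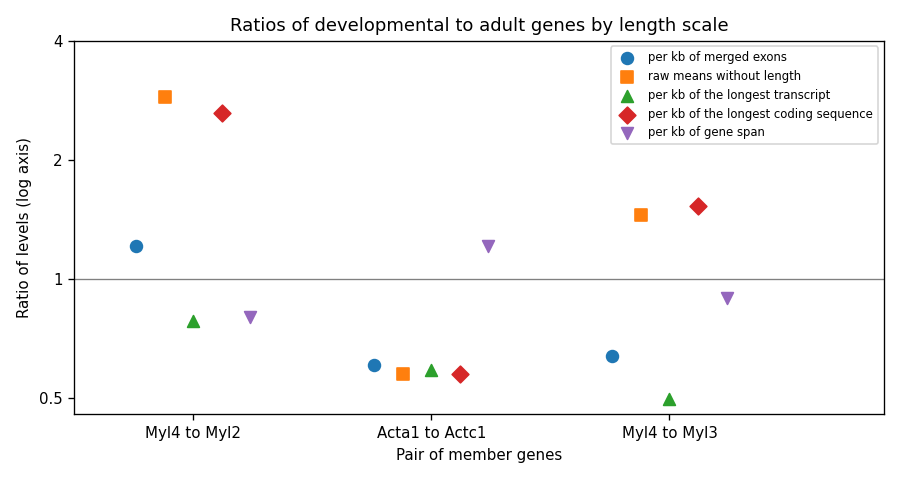
Ratios of means for Myl4 to Myl2, Myl4 to Myl3 and Acta1 to Actc1 on a log axis, each computed per kb of merged exons, without length, per kb of the longest transcript, of the longest coding sequence and of gene span. Every pair has points on both sides of 1, so none has an order that holds on all 5 scales.

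The other gene lists placed these levels among those of the tissue. Of 12 genes of cardiomyocyte calcium handling 11 had a row, against 8.68 from their span classes. Their median mean was 28.7 and their median percentile in span class 82.7, against 6.95 and 63.8 for the members. Per kb of merged exons their median was 2.21 against 1.59, but per kb of span the order was reversed, at 0.143 against 0.242. Their loci with a row were also longer, with a median span of 250 kb against 32.8 kb. Cacna1c, the pore of the L-type calcium channel, led the calcium handling genes at 109, followed by the ryanodine receptor Ryr2 at 63.6. All 11 lay at or above the 50th percentile of their class. Further cardiac sarcomere genes had a row in 16 of 18 cases, against 10.6 from their span classes, and a median percentile of 51.9. After the 2 heavy chains came Palld, an actin-bundling protein, with a mean of 52.8. Skeletal muscle genes had a row in 5 of 18 cases, near the 5.61 given by their span classes, with a median percentile of 29.5 and with Ryr1 highest at 11.4. Of 14 cardiomyocyte identity genes 8 had a row, against 6.65 from their span classes, with a median percentile of 66.0. The transcription factor Gata4 led them at 98.4, but the natriuretic peptide genes Nppa and Nppb, named here after their values were seen, had none.

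**Figure D5:**
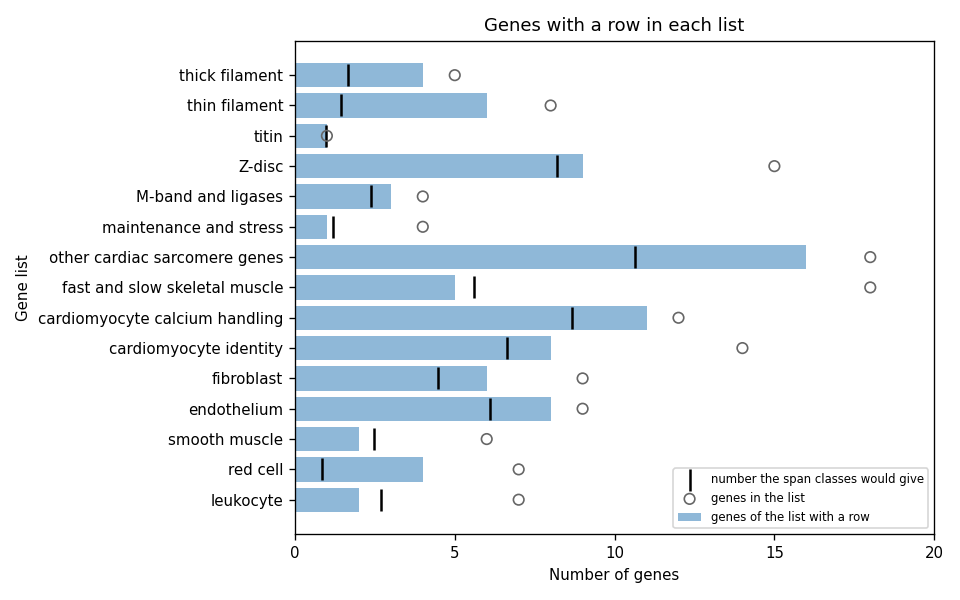
Number of genes with a row in each list (bars), the number that the share in each span class would give (vertical ticks) and the number of genes in the list (open circles). The 37 sarcomere and Z-disc genes are split by role, and the thin filament has 6 genes with a row against 1.46 from its span classes, the Z-disc 9 against 8.20 and the maintenance and stress genes 1 against 1.21.

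By role, the excess of rows over the span classes was largest for the thin filament (6 against 1.46) and the thick filament (4 against 1.67). It was small for the Z-disc (9 against 8.20), M-band and ligases (3 against 2.38) and titin (1 against 0.985). The maintenance and stress genes had 1 row against 1.21. These are counts over few genes, given without a test.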

How the data were processed

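Small RNA of 3 wild-type and 3 ADAR2-/- mouse hearts was sequenced. Per the labels, the authors used Cutadapt, Bowtie and DESeq with the mm9 build; versions, the gene annotation, the counting rule, strand handling and the treatment of multiply mapped reads are not given in the sources used here. The study's methods also hold a second account of sequencing and alignment that names another aligner. The deposited table gives, per Ensembl gene, the authors' mean normalised count over all 6 samples (a pooled signal) and the authors' own genotype comparison (fold changes, their standard errors, test statistics and p-values), which was not used. The table holds no column for a single sample, so no genotype test, replicate error or depth could be computed.

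Gene IDs were matched to GENCODE M21 (GRCm38): 10005 of 10065 matched. The authors counted on mm9 with an unnamed annotation, so the lengths and overlaps used here may differ from those counted over. Length was merged exons, with the longest transcript, the longest coding sequence and the gene span as alternatives. Span classes were 10 equal groups of annotated protein-coding genes; percentiles are ranks among rows. Shared stretches were 22-base words of annotated transcripts found in transcripts of another gene on the same strand. Computation used Python 3.11.15, numpy 2.4.6, pandas 2.3.3, scipy 1.17.1 and matplotlib 3.10.9, and was tested on simulated data. The members and gene lists were chosen with earlier results of these data known.

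Named in full were the 5 members with the highest and the 5 with the lowest mean, the 10 highest per kb, those of the isoform ratios, those sharing over 10% of their stretches and those overlapping a gene with a row. Of other genes at most the 3 with the highest mean in a list were named, besides genes overlapping or sharing stretches with a member. The microRNAs in the heavy chain genes were named after their values were seen.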

Additional observations from a re-analysis of the deposited data

How the results depend on the processing

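The table holds 1 mean over both genotypes, so leaving out a replicate, another scaling and a test of genotype were not run. No paired analysis was possible because the columns carry no value for a single heart. Rank within span class, gene span as the length and Myl4 beside Myl3 were chosen after seeing the data. The members' median of 1.59 per kb of merged exons became 2.24 per kb of the longest transcript, 4.87 per kb of coding sequence and 0.242 per kb of span. Their median percentile of 50.6 became 51.4 among all rows, 59.9 among protein-coding rows with a mean of at least 10 and 63.8 within span class. Their share of 0.152% became 0.186% of the protein-coding sum, 0.113% without Ttn and 0.0970% without members overlapping another gene with a row. Their median mean of 6.95 became 25.2 among rows of at least 10. The ratio of Myl4 to Myl2, 1.21, became 2.89 without length, 0.784 per kb of the longest transcript, 2.63 per kb of coding sequence and 0.802 per kb of span. In the same order, Acta1 to Actc1 moved from 0.608 to 0.577, 0.588, 0.577 and 1.21, and Myl4 to Myl3 from 0.638 to 1.45, 0.498, 1.53 and 0.897. The number of members sharing over 10% of their stretches, 1 at 22 bases, was 4 at 18 bases, 0 at 30 bases and 4 on either strand; both counts of 4 include genes without a row. With no value and no read total per heart in the table, the precision of means under 10 is unknown.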

Other observations

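Among lists of other cell types, endothelial genes had a row in 8 of 9 cases, against 6.10 from their span classes. Egfl7 led them at 676, and its locus holds Mir126a with a separate mean of 675 (99.9% of that of Egfl7). Flt1, a receptor for vascular growth factors, followed at 48.9. The median percentile of the endothelial genes within span classes was 26.1, below the 63.8 of the sarcomere and Z-disc genes. Red cell (41.8) and leukocyte genes (5.99) also lay below 63.8, whereas fibroblast (79.6) and smooth muscle genes (67.1) lay above it. Fibroblast genes had a row in 6 of 9 cases, against 4.48 from their span classes. All 6 lay at or above the 50th percentile of their class, and Col3a1, a fibrillar collagen, had the highest mean at 44.8. Red cell genes had a row in 4 of 7 cases, against 0.854 from their span classes, although the highest of them, the alpha-globin gene Hba-a2, had a mean of only 4.85. Smooth muscle genes had a row in 2 of 6 cases, against 2.49, with Myocd, a coactivator of smooth and heart muscle genes, at 18.6. Leukocyte genes had a row in 2 of 7 cases, against 2.68, with Ptprc, the common leukocyte antigen, at 7.93. The part of other cell types in the members' means was not tested.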
